A study of Mus musculus with 12 samples.

Results

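The genes described here are 10 transcripts that mark reactive astrocytes in the injured brain, Gfap, Vim, Nes, Osmr, Cd44, Fgf2, Serpina3n, Cp, Steap4 and Aspg. They were taken by symbol from a table of 21956 mouse genes, in which each of the 10 symbols had its row. The study addressed what loss of the fatty acid binding protein FABP4 from microglia does to inflammation after intracerebral hemorrhage (ICH). RNA was taken from brain tissue of 12 mice, 3 in each of 4 groups, and each library is 1 mouse. Sham-Fabp4flox/flox and ICH-Fabp4flox/flox mice carried floxed Fabp4, and Sham-Fabp4CKO and ICH-Fabp4CKO mice carried in addition the inducible Cre recombinase of the TMEM119creER/+ allele, driven by a microglial gene, and were given tamoxifen for 7 days, with surgery 14 days after the last dose. ICH was made by injecting collagenase, an enzyme that breaks down vessel walls, into the right striatum, and sham mice had the operation without collagenase. Tissue was taken next to the hematoma, within a radius of 1 to 2 mm and in slices 1 mm thick, 48 h after ICH, and from the same place in sham mice. The sources used here do not state whether the flox/flox mice received tamoxifen, or the age or sex of these mice. The Cre was thus aimed at microglia, while the 10 genes were measured in whole tissue.

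Astrocytes respond to injury by enlarging their processes and by making intermediate filament proteins, secreted protease inhibitors, cytokine receptors and matrix receptors. Cytokines of the interleukin 6 family act through receptors that share the subunit gp130 and pass their signal to STAT3, a pathway known to drive Gfap and other genes of this response. Several of the 10 genes are also made by other cells of injured brain: vimentin and CD44 by macrophages, endothelial cells and fibroblasts, and ceruloplasmin by the choroid plexus.

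The start regions of the genes are shown first because they are what the members could share beside their response. RefSeq promoter windows (build GRCm38.p6, 250 bases before to 50 after each start) were found for 10 of the 10 genes, 11 windows in all because Cp has a pair of starts. They were searched on both strands for the STAT motif TTCNNNGAA and the C/EBP motif TTGCNNAA. The third pattern, called AP-1 here, was TGANTCA, a relaxed form of the AP-1 motif that allows any middle base. The STAT motif stood in 2 of the 10 genes, Gfap and Steap4, against 8.3% of the 32851 windows of the whole table. The relaxed AP-1 pattern stood in 2, Cp and Osmr, both times as TGATTCA, against 7.81% of windows. C/EBP stood in 2, Cp and Steap4, against 10.8%. Vim, Nes, Cd44, Fgf2, Serpina3n and Aspg held none of these letters in this window. The stretches that hold matches are given 5′ to 3′ along the gene, with each match in capitals, and no match overlapped another.
Gfap, chr11:102897191-102897290, minus strand, STAT: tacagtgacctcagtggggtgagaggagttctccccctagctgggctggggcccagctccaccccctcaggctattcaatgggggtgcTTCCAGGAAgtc
Steap4, chr5:7960322-7960471, plus strand, STAT and then C/EBP: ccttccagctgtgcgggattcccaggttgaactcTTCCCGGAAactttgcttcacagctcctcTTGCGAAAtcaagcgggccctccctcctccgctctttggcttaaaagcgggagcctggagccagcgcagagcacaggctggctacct
Cp, chr3:19956834-19956934, plus strand, AP-1: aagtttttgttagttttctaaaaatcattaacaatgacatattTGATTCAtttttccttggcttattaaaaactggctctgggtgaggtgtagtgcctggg
Cp, the other start, chr3:19957129-19957229, plus strand, C/EBP on the opposite strand: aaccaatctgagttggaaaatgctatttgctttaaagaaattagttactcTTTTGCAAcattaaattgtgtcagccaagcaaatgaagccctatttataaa
Osmr, chr15:6874299-6874373, minus strand, AP-1: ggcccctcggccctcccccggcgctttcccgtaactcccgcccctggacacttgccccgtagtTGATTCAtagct
The Gfap match began at position -2 and crossed the start, that of Osmr began at position 4 after its start, and those of Steap4 began at -116 and -87. A match is only a description of the letters and was not tested as a binding site.

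Total estimated counts per library ranged from 15650813 to 22406216, and values below are CPM, estimated counts per 1000000 after TMM scaling. Fabp4 was counted at 46, 63 and 24 reads in ICH-Fabp4flox/flox and at 5, 3 and 10 in ICH-Fabp4CKO, against 2, 1 and 2 in Sham-Fabp4flox/flox and 0 in each Sham-Fabp4CKO mouse. Mitochondrial transcripts took 10.4 to 16.3% of counts in ICH-Fabp4flox/flox, above the 7.9 to 9.5% of ICH-Fabp4CKO, 8.51 to 9.95% of Sham-Fabp4flox/flox and 8.39 to 9% of Sham-Fabp4CKO. ICH-Fabp4CKO mouse 1 had 1 read over Ddx3y, Eif2s3y, Kdm5d and Uty, which lie on the Y chromosome, against 1302 to 2251 in the other libraries. This mouse was the highest of its group for 8 of the 10 genes, and the part of sex in the values was not tested. ICH-Fabp4CKO mouse 2 stood below mice 1 and 3 in leukocyte and fibroblast markers, with a summed monocyte and macrophage marker level of 1345 CPM against 6613 and 10780. In erythroid markers mouse 1 stood apart, at 1116 CPM against 143 and 120 in mice 2 and 3. The 12 astrocyte markers, which include Aqp4, Aldh1l1, Slc1a2 and Gja1, were counted in every group, with a summed level of 4569 to 8793 CPM over the 12 mice.

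ICH against sham in flox/flox mice asked how the injured tissue differs from uninjured tissue when Fabp4 is intact. All 10 genes were higher in ICH-Fabp4flox/flox, by 6.44-fold (Fgf2) to 46.3-fold (Serpina3n). None of the 10 had overlapping groups. Of 14719 genes tested, 26.2% were called higher and 19.3% lower, and 34.4% were higher with no overlap. The median log2 fold change of the 10 was 3.84, against 0.02 over all genes tested. In Fabp4CKO mice, whose libraries are none of those in the flox/flox comparison, all 10 were again higher, by 4.06-fold (Fgf2) to 80.7-fold (Steap4), with a median of 4.11 against 0.01. There, 24.5% of 14737 genes were called higher, 11.1% lower and 33.2% were higher with no overlap. Together the 10 genes took 0.0241 to 0.0607% of the counts in Sham-Fabp4flox/flox and 0.670 to 0.917% in ICH-Fabp4flox/flox, and 0.0236 to 0.0265% and 0.437 to 0.622% in the CKO groups. In bulk tissue, a change in the number of cells of a type and a change in RNA per cell cannot be told apart. Adjusted p-values come from quasi-likelihood tests in edgeR and were corrected by the Benjamini-Hochberg method over all genes tested. Over the 10 genes they lay between 0.00035 and 0.00149 in flox/flox and between 0.00439 and 0.012 in CKO.

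**Figure D1:**
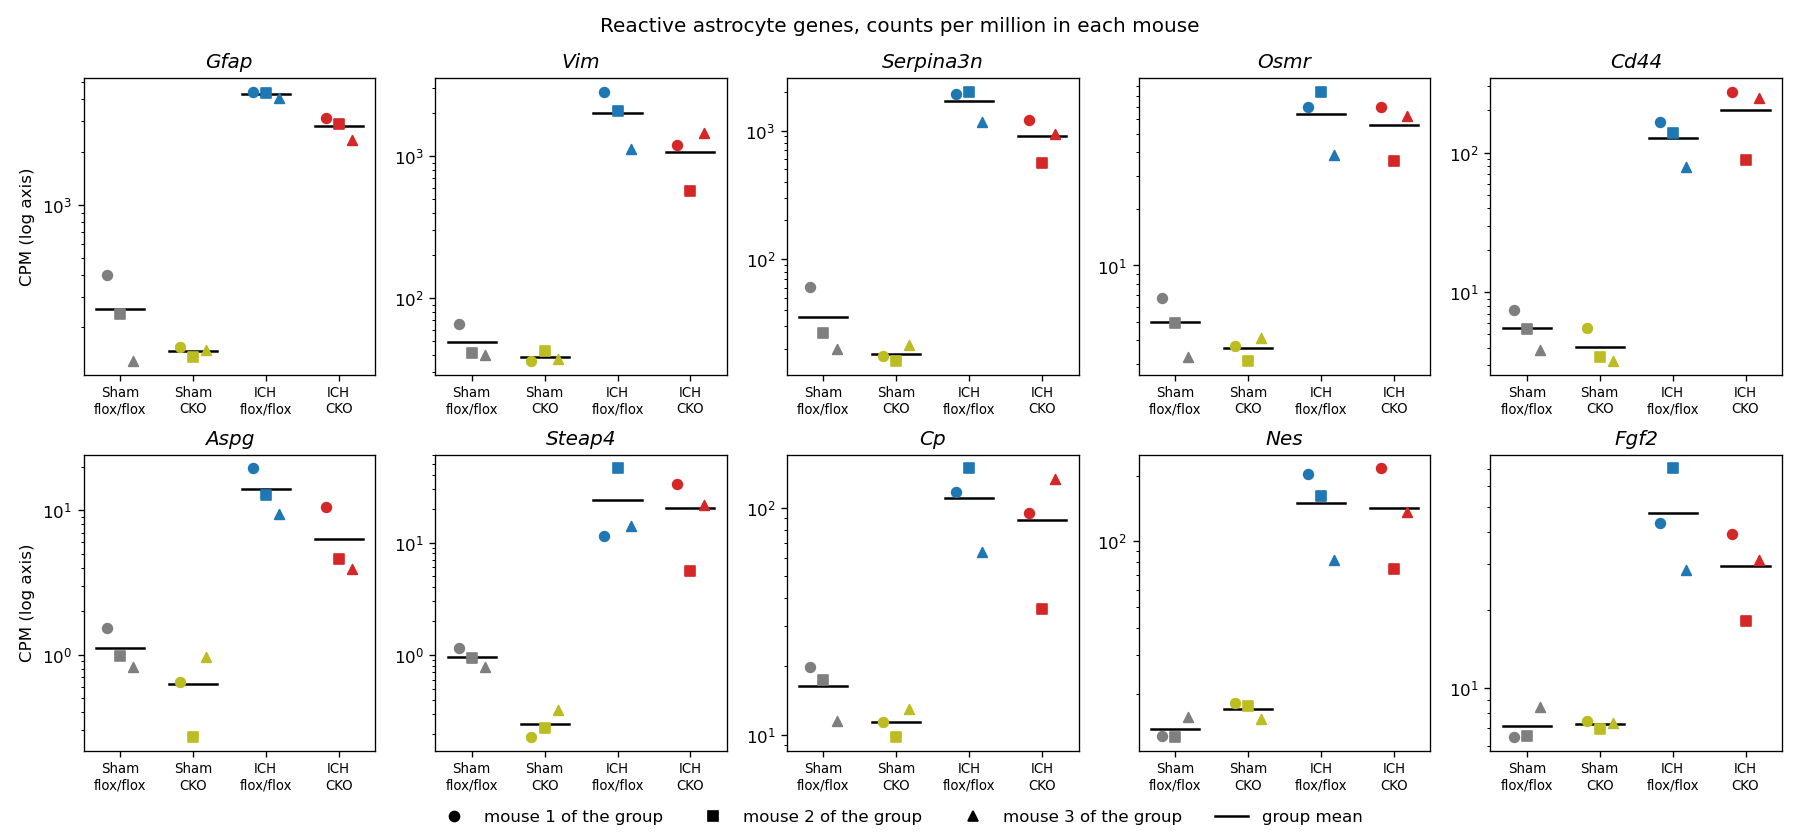
CPM of each gene on a log axis in each of the 12 mice, with circles, squares and triangles for mouse 1, 2 and 3 of a group and a black line for the group mean (n = 3). In each of the 10 panels the 6 ICH mice lie above the 6 sham mice, and in the Gfap panel the 3 ICH-Fabp4CKO mice (2350 to 3153 CPM) lie below the 3 ICH-Fabp4flox/flox mice (4094 to 4421 CPM).

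The intermediate filament genes among the 10 are Gfap, Vim and Nes, which encode the filament proteins of reactive astrocytes, of many mesenchymal and immature cells, and of neural progenitors. Gfap stood at 398, 238 and 128 CPM in Sham-Fabp4flox/flox, at 155, 137 and 149 in Sham-Fabp4CKO, at 4421, 4358 and 4094 in ICH-Fabp4flox/flox and at 3153, 2916 and 2350 in ICH-Fabp4CKO. The sham flox/flox mice spread widely, while the 3 ICH-Fabp4flox/flox mice lay close together at 4291 ± 173 CPM (SD, n = 3). The log2 fold change of ICH was 4.04 (SE 0.43, adjusted p = 0.000665) in flox/flox and 4.26 (SE 0.21, adjusted p = 0.00439) in CKO.

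Vim stood at 65.7, 41 and 40.1 CPM in Sham-Fabp4flox/flox, at 36, 42.6 and 37.5 in Sham-Fabp4CKO, at 2829, 2085 and 1128 in ICH-Fabp4flox/flox and at 1193, 567 and 1445 in ICH-Fabp4CKO. It rose by 5.31 (SE 0.42, adjusted p = 0.00035) on the log2 scale in flox/flox and by 4.79 (SE 0.40) in CKO. ICH mouse 3 was the lowest of the flox/flox mice and ICH mouse 2 the lowest of the CKO mice. Nes, a filament gene of progenitors that astrocytes take up again after injury, stood at 12.8, 12.6 and 15.7 CPM in Sham-Fabp4flox/flox, at 18, 17.5 and 15.3 in Sham-Fabp4CKO, at 203, 162 and 82.3 in ICH-Fabp4flox/flox and at 217, 74.3 and 137 in ICH-Fabp4CKO. Its lowest ICH mice were the same ones as for Vim, and it rose by 3.39 (SE 0.33, adjusted p = 0.000479) and 3.08 (SE 0.40).

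Osmr, Cd44 and Fgf2 act in signaling at the cell surface. Osmr encodes the receptor that pairs with gp130 to bind oncostatin M. It stood at 6.75, 4.93 and 3.25 CPM in Sham-Fabp4flox/flox, at 3.7, 3.09 and 4.09 in Sham-Fabp4CKO, at 70.1, 84.2 and 38.6 in ICH-Fabp4flox/flox and at 69.6, 36 and 62.8 in ICH-Fabp4CKO. The ranges of the ICH groups nearly coincided, and the rise was 3.64 (SE 0.37, adjusted p = 0.000534) in flox/flox and 3.95 (SE 0.30) in CKO.

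Cd44 encodes a receptor for hyaluronan and osteopontin that is made by reactive astrocytes and by leukocytes. It stood at 7.47, 5.42 and 3.87 CPM in Sham-Fabp4flox/flox, at 5.59, 3.45 and 3.22 in Sham-Fabp4CKO, at 164, 138 and 78.2 in ICH-Fabp4flox/flox and at 272, 88 and 246 in ICH-Fabp4CKO. After ICH the CKO mice did not stand together, with mice 1 and 3 above the highest flox/flox mouse and mouse 2 within the flox/flox range. Its rise was 4.45 (SE 0.35, adjusted p = 0.00035) in flox/flox and 5.63 (SE 0.54) in CKO.

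Fgf2, a growth factor that acts on astrocytes and vessels, had the smallest rise in both genotypes. It stood at 6.46, 6.52 and 8.42 CPM in Sham-Fabp4flox/flox, at 7.49, 6.99 and 7.36 in Sham-Fabp4CKO, at 43.4, 70.4 and 28.5 in ICH-Fabp4flox/flox and at 39.3, 18.2 and 31.1 in ICH-Fabp4CKO. The log2 fold changes were 2.69 (SE 0.33, adjusted p = 0.00104) and 2.02 (SE 0.29, adjusted p = 0.00764). Fgf2 overlaps Nudt6 on the opposite strand, and its estimated counts were not whole numbers. Library preparation was not stated to keep strand, so reads where the genes overlap cannot be assigned with certainty. Nudt6 stood between 0.925 and 3.12 CPM over the 12 mice, a level that comes from the same assignment of reads. The part of overlapping reads in the Fgf2 values was not tested.

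Serpina3n, Cp, Steap4 and Aspg encode secreted proteins and enzymes. Serpina3n, a serine protease inhibitor, had the largest rise in flox/flox. It stood at 60.2, 26.7 and 20.1 CPM in Sham-Fabp4flox/flox, at 17.7, 16.1 and 21.5 in Sham-Fabp4CKO, at 1939, 1999 and 1165 in ICH-Fabp4flox/flox and at 1215, 558 and 940 in ICH-Fabp4CKO. The groups overlapped between genotypes after ICH, by the margin between 1165 and 1215 CPM. The rise was 5.53 (SE 0.51, adjusted p = 0.000421) in flox/flox and 5.62 (SE 0.37) in CKO. Serpina3n has close paralogs next to it in its gene cluster, and its count is uncertain where reads are shared with them.

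Cp encodes ceruloplasmin, a copper protein that oxidizes iron for export. It stood at 20, 17.5 and 11.5 CPM in Sham-Fabp4flox/flox, at 11.4, 9.72 and 13 in Sham-Fabp4CKO, at 118, 150 and 64.1 in ICH-Fabp4flox/flox and at 94.6, 35.7 and 134 in ICH-Fabp4CKO. It rose by 2.72 (SE 0.34, adjusted p = 0.00112) and by 2.96 (SE 0.49, adjusted p = 0.00988). Cp overlaps Hps3 on the opposite strand, which ranged from 11.8 to 33.2 CPM.

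Steap4, which encodes a metalloreductase that reduces iron and copper at membranes, was the most variable of the 10 after ICH. It stood at 1.16, 0.931 and 0.775 CPM in Sham-Fabp4flox/flox, at 0.185, 0.224 and 0.322 in Sham-Fabp4CKO, at 11.5, 46 and 14 in ICH-Fabp4flox/flox and at 33.2, 5.54 and 21.7 in ICH-Fabp4CKO. One mouse in each ICH group set it apart, mouse 2 as the highest in flox/flox and mouse 2 as the lowest in CKO. The rise was 4.59 (SE 0.62, adjusted p = 0.00149) in flox/flox and 6.33 (SE 0.81, adjusted p = 0.00612) in CKO, where the sham libraries held only 4, 5 and 7 reads.

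Aspg, which encodes an asparaginase, stood at 1.54, 0.986 and 0.826 CPM in Sham-Fabp4flox/flox, at 0.647, 0.269 and 0.966 in Sham-Fabp4CKO, at 19.6, 12.8 and 9.41 in ICH-Fabp4flox/flox and at 10.5, 4.64 and 3.94 in ICH-Fabp4CKO. The ICH groups overlapped only through ICH-Fabp4CKO mouse 1. It rose by 3.58 (SE 0.37, adjusted p = 0.000574) and by 3.33 (SE 0.60, adjusted p = 0.012).

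In flox/flox mice the order of the effects was Serpina3n, Vim, Steap4, Cd44, Gfap, Osmr, Aspg, Nes, Cp and Fgf2. Neighbors in this order had overlapping 95% confidence intervals, while the interval of Serpina3n (4.34 to 6.72) lay above that of Fgf2 (1.91 to 3.46). In CKO mice the order was Steap4, Cd44, Serpina3n, Vim, Gfap, Osmr, Aspg, Nes, Cp and Fgf2, so the last 6 places were the same. All 10 calls in flox/flox held when any 1 mouse was left out. In CKO, leaving out any 1 of the 3 sham mice left 7 or 8 of the 10 past the threshold, with the highest adjusted p at 0.0624 for Aspg, 0.0567 for Cp and 0.0507 for Fgf2, and none lost its direction. Without any 1 of the ICH-Fabp4CKO mice, all 10 were called.

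**Figure D2:**
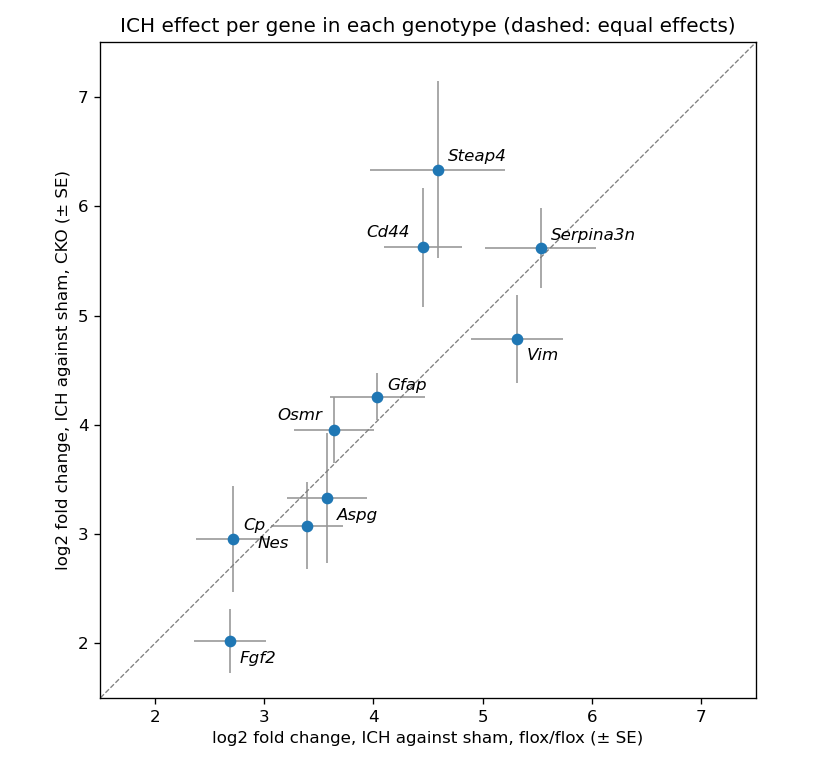
Log2 fold change of ICH against sham per gene in flox/flox mice (horizontal axis) and in CKO mice (vertical axis), with bars of 1 SE (3 mice against 3 for each axis). Serpina3n lies near the dashed line of equal effects (5.53 and 5.62), and Cd44 (4.45 and 5.63) and Steap4 (4.59 and 6.33) lie farthest above it.

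The astrocyte marker list served to show how the 10 genes moved against astrocyte transcripts that are not markers of reactivity. Of its 12 genes, 3 rose and 1 fell after ICH in flox/flox, and 3 rose in CKO. These counts were near the shares over all genes, 26.2% higher and 19.3% lower in flox/flox and 24.5% higher in CKO. Its summed level was 5817 to 6657 CPM in Sham-Fabp4flox/flox, 6268 to 6575 in Sham-Fabp4CKO, 4569 to 7250 in ICH-Fabp4flox/flox and 5200 to 8793 in ICH-Fabp4CKO, and none of the 12 was at 0 in any group. The ratio of Gfap to this sum was 0.0599, 0.0375 and 0.0221 in Sham-Fabp4flox/flox and 0.0247, 0.0215 and 0.0226 in Sham-Fabp4CKO. After ICH it was 0.968, 0.704 and 0.565 in flox/flox and 0.606, 0.332 and 0.398 in CKO. Both ICH groups stood above all 6 sham mice in this ratio, and overlapped each other through ICH-Fabp4CKO mouse 1.

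Markers of other cells also moved with ICH, where 26.2% of all genes were called higher in flox/flox and 24.5% in CKO. All 8 monocyte and macrophage markers rose in both genotypes, and their summed level went from 90.5 to 144 CPM in Sham-Fabp4flox/flox to 1216 to 3506 in ICH-Fabp4flox/flox, and from 85.6 to 88.5 to 1345 to 10780 in the CKO groups. All 8 endothelial markers rose in flox/flox and 4 of 8 in CKO, with sums of 255 to 286, 584 to 1309, 241 to 247 and 312 to 419 CPM in Sham-Fabp4flox/flox, ICH-Fabp4flox/flox, Sham-Fabp4CKO and ICH-Fabp4CKO. Neutrophil markers rose in 5 of 5 tested and 6 of 6 tested, with sums of at most 11.9 CPM in the sham mice, 53.3 to 94.5 in ICH-Fabp4flox/flox and 72.4 to 252 in ICH-Fabp4CKO; Ly6g, a defining marker, was at 0 in ICH-Fabp4flox/flox. Fibroblast and meningeal markers rose in 5 of 8 in each genotype. The part of these cells in the rise of Vim, Cd44, Cp and the other genes was not tested.

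**Figure D3:**
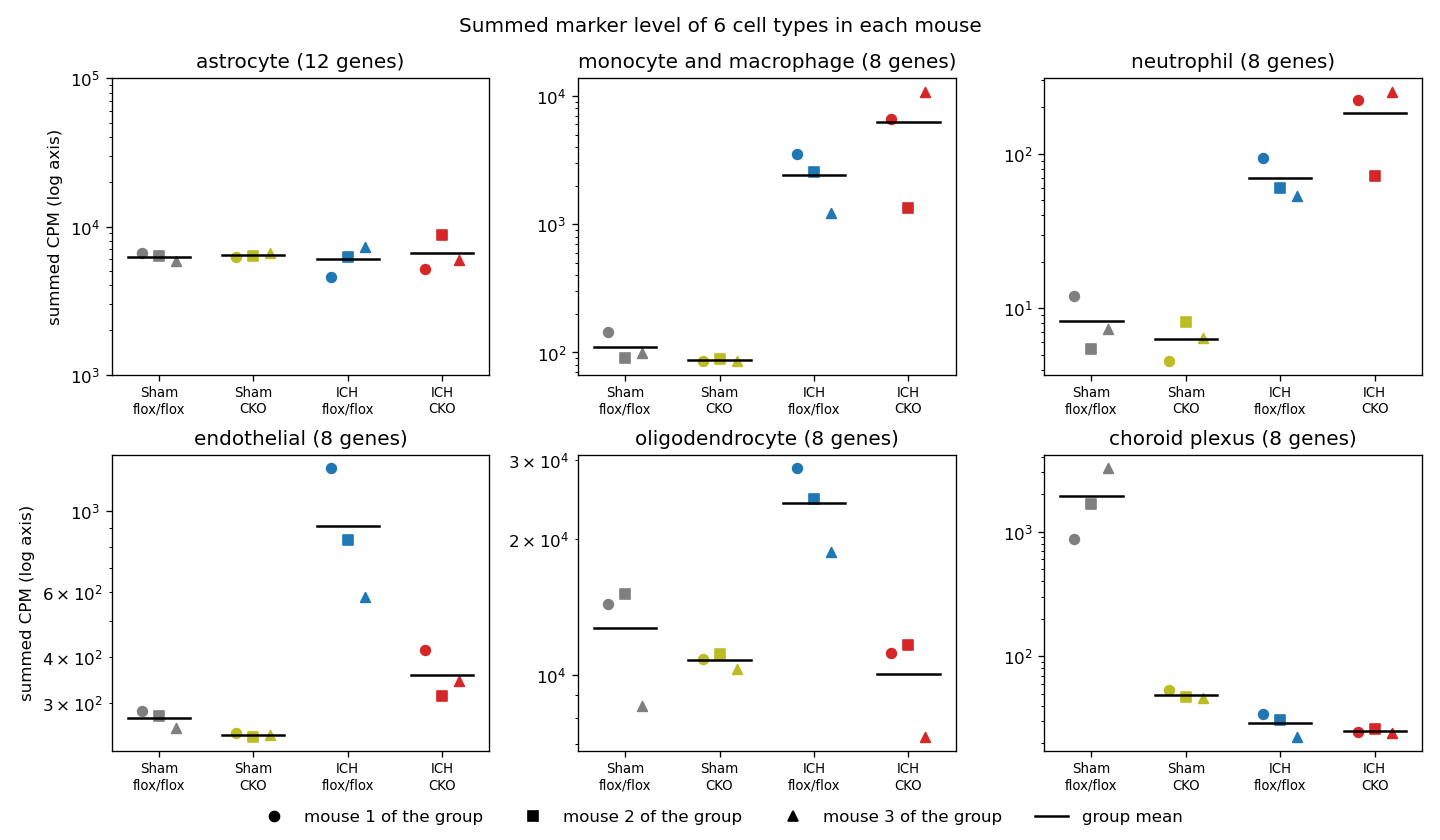
Summed CPM of 6 marker lists on log axes in each mouse, with symbols for mouse 1, 2 and 3 of a group and a black line for the group mean. The astrocyte sum stays between 4569 and 8793 CPM over the 12 mice, the monocyte and macrophage sum of ICH-Fabp4CKO mouse 2 (1345 CPM) lies below mice 1 and 3, and the choroid plexus sum is high only in Sham-Fabp4flox/flox (870 to 3233 CPM).

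ICH-Fabp4CKO against ICH-Fabp4flox/flox asked whether levels after ICH differ between the genotypes. Whether the change from sham differs was asked by the difference between the ICH effects, given below. The comparison of the ICH groups shares its libraries with those above. None of the 10 genes passed the adjusted threshold, as was so for all 14600 genes tested (0% called, edgeR), although 1777 genes, 12.2%, had an unadjusted p under 0.05. None of the 10 was among those. The log2 fold change was below 0 for 8 genes and above 0 for Cd44 and Nes, with a median of -0.41 against 0.06 over all genes tested.

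Gfap was the 1 gene of the 10 whose groups did not overlap, at 2806 ± 413 CPM in ICH-Fabp4CKO and 4291 ± 173 in ICH-Fabp4flox/flox (SD, n = 3 each). Over all genes, 11.5% were lower in CKO with no overlap. The log2 fold change was -0.56 (SE 0.25, 95% interval -1.16 to 0.05, adjusted p = 0.436). DESeq2 gave -0.58 (SE 0.17, adjusted p = 0.0202) and so called it, with 3.96% of genes called in all, while none of the other settings tried called any of the 10. Gfap stayed below 0 in each fit with 1 mouse left out, from -0.65 to -0.45. The mitochondrial share of counts separated the same groups with no overlap, at 10.4 to 16.3% in ICH-Fabp4flox/flox and 7.9 to 9.5% in ICH-Fabp4CKO, and its part in the Gfap values was not tested.

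Aspg had the largest difference, -1.07 (SE 0.45, interval -2.15 to 0.003, adjusted p = 0.411). Vim and Serpina3n each stood at -0.85, with intervals of -1.95 to 0.26 and -1.73 to 0.03. Fgf2 was at -0.62 (interval -1.59 to 0.34). Osmr (-0.13), Steap4 (-0.19) and Cp (-0.26) were close to 0, with intervals that reached from -0.98 to 0.71, from -2.01 to 1.63 and from -1.49 to 0.97, and all 3 turned positive without ICH-Fabp4flox/flox mouse 2 or without ICH-Fabp4CKO mouse 2. Nes was at 0.002 (interval -1.10 to 1.11). Cd44 was at 0.73 (SE 0.47, interval -0.38 to 1.85, adjusted p = 0.554) and at 1.09 without ICH-Fabp4CKO mouse 2. Differences of 2-fold, a log2 value of 1, were inside the interval for 9 of the 10 genes, all but Osmr.

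**Figure D4:**
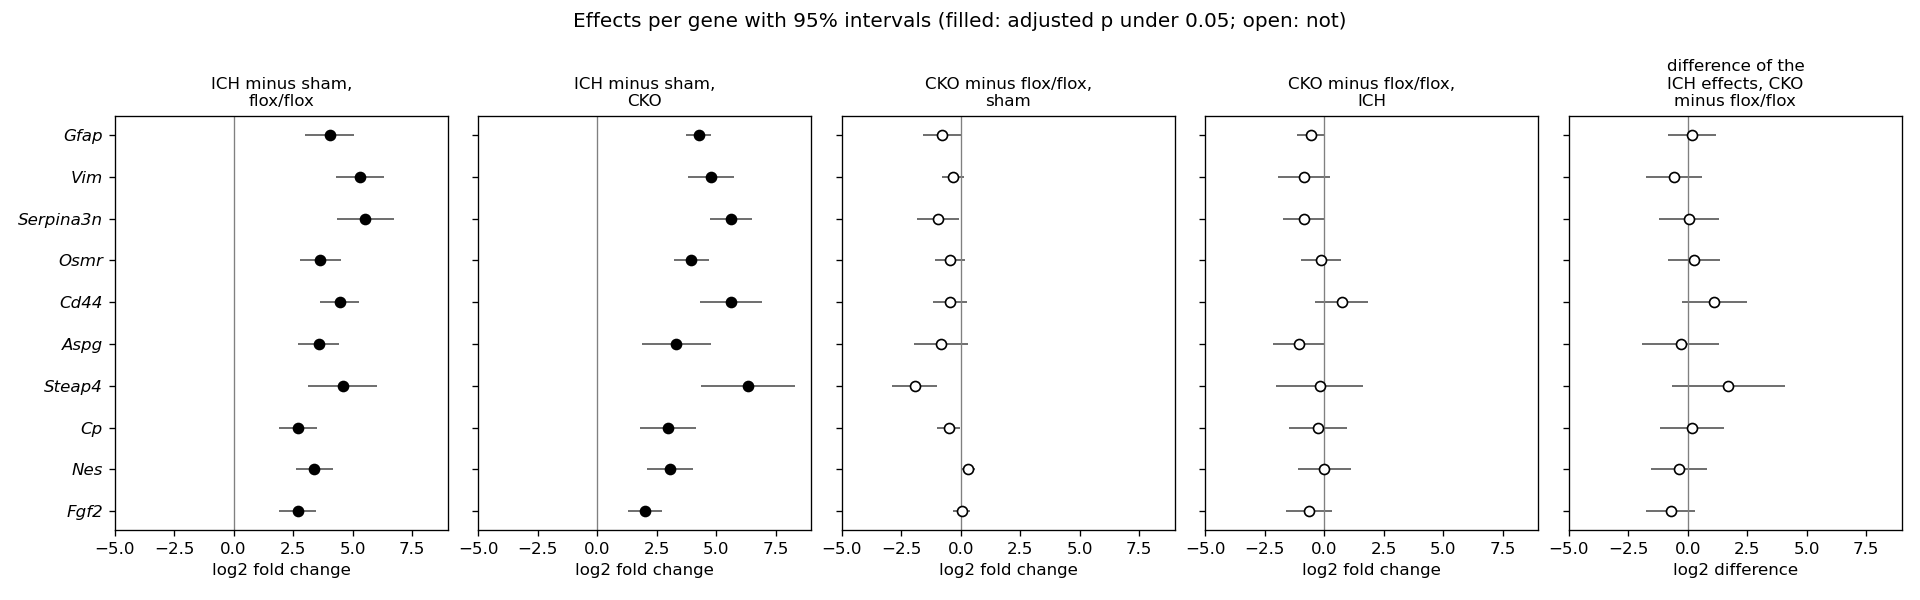
Log2 fold change per gene with its 95% confidence interval in the 4 comparisons, and the difference between the ICH effects of the genotypes in the panel on the right, with filled points for adjusted p under 0.05. All 20 effects of ICH are filled, and all 30 points of the genotype and difference panels are open.

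No gene of any cell type list passed the adjusted threshold between the ICH groups, but some summed levels did not overlap. Oligodendrocyte markers summed to 18730 to 28829 CPM in ICH-Fabp4flox/flox and 7257 to 11649 in ICH-Fabp4CKO, oligodendrocyte precursor markers to 773 to 936 and 584 to 639, and endothelial markers to 584 to 1309 and 312 to 419, with no overlap in any of these sums. All 8 oligodendrocyte and all 8 endothelial genes were below 0 with an unadjusted p under 0.05. The astrocyte sums overlapped between the groups, and 6 of the 12 genes were below 0 and 6 above. Of the 12, 3 (Aldh1l1, Acsbg1 and S100b) were lower in CKO with no overlap, against 11.5% of all genes, and 0 were higher. An unadjusted p under 0.05 was seen for 1 of the 12. Monocyte and macrophage sums were 3506, 2540 and 1216 CPM in ICH-Fabp4flox/flox and 6613, 1345 and 10780 in ICH-Fabp4CKO. The part of these differences in the values of the 10 genes was not tested.

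The difference between the ICH effects of the genotypes was fitted in all 12 libraries, and none of the 10 genes passed, against 0.0199% of 15089 genes called. No member had an unadjusted p under 0.05, against 9.94% of all genes. Steap4 had the largest value, a CKO effect higher by 1.70 (SE 1.07, interval -0.67 to 4.07, adjusted p = 0.635), followed by Cd44 at 1.12 (SE 0.61, interval -0.23 to 2.48, adjusted p = 0.578). Fgf2 (-0.71), Vim (-0.58), Nes (-0.37) and Aspg (-0.30) were below 0, and Gfap was at 0.18 (interval -0.82 to 1.19).

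In sham mice, CKO against flox/flox shows the genotypes without hemorrhage. None of the 10 genes passed the adjusted threshold, against 0.111% of 14395 genes called, all lower in CKO. The log2 fold change was below 0 for 8 genes, with a median of -0.48 against 0.003 over all genes. Serpina3n, Steap4, Cp and Nes had an unadjusted p under 0.05, which 10.2% of all genes had. Steap4 was the 1 gene of the 10 with no overlap, 0.954 ± 0.192 CPM in Sham-Fabp4flox/flox and 0.244 ± 0.0705 in Sham-Fabp4CKO (SD, n = 3 each), where 8.86% of all genes were lower with no overlap. Its log2 fold change was -1.93 (SE 0.40, adjusted p = 0.263), on 15 to 24 reads a library against 4 to 7. The exact test of edgeR called Steap4 (adjusted p = 0.00846, 1.05% of genes called).

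Gfap in sham differed by -0.78 (SE 0.35, adjusted p = 0.484). Mice 1 and 2 of Sham-Fabp4flox/flox stood above the CKO range and mouse 3, at 128 CPM, below it. Without Sham-Fabp4flox/flox mouse 3, 5 of the 10 genes passed, Gfap (-1.10), Serpina3n (-1.22), Steap4 (-2.06), Cp (-0.70) and Nes (0.43), while 19.6% of all genes did. That mouse was the lowest of its group for 8 of the 10 genes. Choroid plexus markers summed to 870, 1650 and 3233 CPM in the 3 Sham-Fabp4flox/flox mice and 46.1 to 54.1 in Sham-Fabp4CKO, and 5 of the 8 (Ttr, Kl, Kcne2, Aqp1 and Slc4a5) were called lower in Sham-Fabp4CKO. In Sham-Fabp4flox/flox the choroid plexus sum was highest in mouse 3 and lowest in mouse 1, where Gfap was highest. Fibroblast and meningeal markers were below 0 in CKO for 8 of 8 genes, with an unadjusted p under 0.05 for 7 and no overlap for 6, though none passed the adjusted threshold. Their sum was 744, 490 and 372 CPM in Sham-Fabp4flox/flox, in the same order of mice as Gfap and Serpina3n, and 287 to 374 in Sham-Fabp4CKO. The part of choroid plexus or meningeal tissue in the sham values was not tested, and the same 3 libraries are the sham side of the flox/flox comparison with ICH.

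Within groups, most of the 10 genes deviated together from mouse to mouse. After the group mean of each gene was taken off its log2 CPM, 43 of the 45 pairs of genes had a positive Pearson r over the 12 libraries, with a median of 0.62. The highest was 0.92 for Serpina3n with Osmr, then 0.90 for Osmr with Cp and 0.85 for Vim with Cd44. Gfap was the least like the others, with r from -0.16 (Fgf2) to 0.72 and a median of 0.26 over its 9 pairs, against 0.66 over the 36 pairs without it. Its deviations were 0.79, 0.05 and -0.84 in the 3 Sham-Fabp4flox/flox mice and lay between -0.25 and 0.18 in the other groups. The r of Gfap thus rest mostly on those 3 mice. All r given here are descriptions, and genes of 1 library share its depth, scaling and cell mixture.

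**Figure D5:**
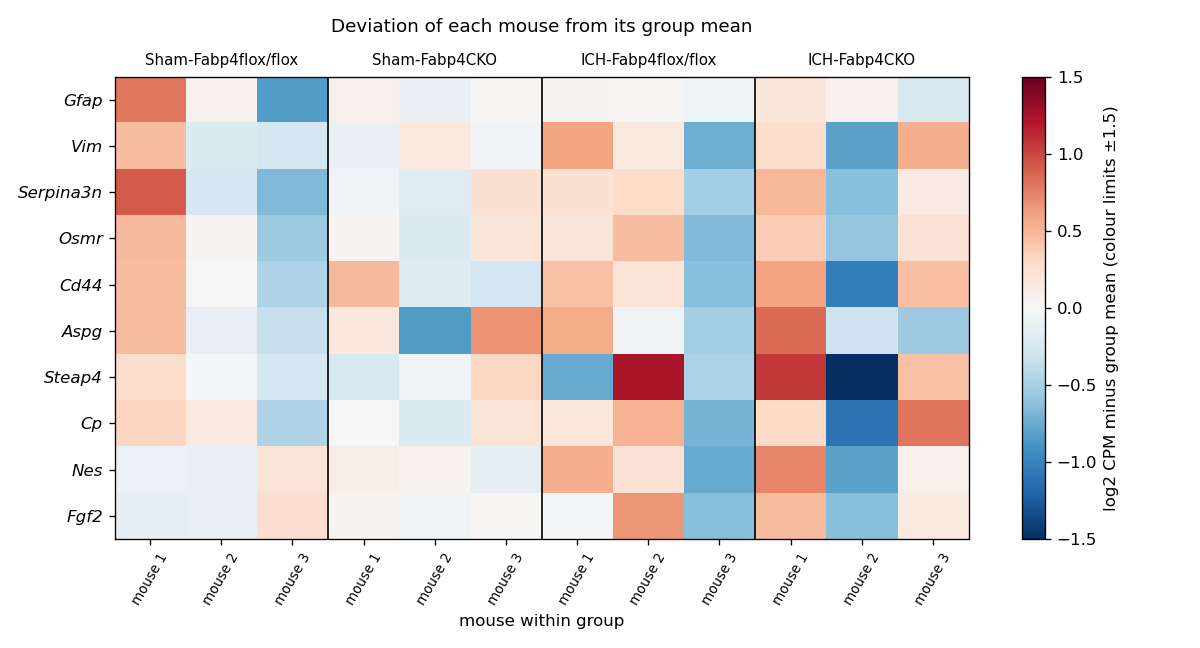
Log2 CPM of each gene in each mouse minus the mean of its group, in color from blue (below the mean) to red (above), with colors limited at 1.5 either way. ICH-Fabp4flox/flox mouse 3 is blue for 10 of 10 genes and is the lowest of its group for 9, and ICH-Fabp4CKO mouse 2 is the lowest of its group for 8, with Gfap near 0.

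ICH-Fabp4flox/flox mouse 3 was the lowest of its group for 9 of the 10 genes, all but Steap4. ICH-Fabp4CKO mouse 2 was the lowest for 8, all but Gfap and Aspg, which were lowest in mouse 3. These 2 mice also had the lowest monocyte and macrophage sums of their groups. Over the 12 libraries with group means taken off, the r of a gene with the log2 monocyte and macrophage sum was 0.94 for Vim, 0.90 for Cp, 0.86 for Cd44 and 0.78 for Nes, against 0.06 for Gfap and 0.30 for Aspg. Other lists gave values as high, and these r do not set one cell type apart. With the pericyte and smooth muscle sum r was 0.95 for Vim, 0.89 for Cp, 0.88 for Cd44 and 0.86 for Osmr, with the fibroblast and meningeal sum 0.91 for Cp, and with the neuron sum -0.94 for Vim. With the astrocyte sum it was -0.94 for Nes, -0.77 for Vim and 0.14 for Gfap. Gfap had its strongest r with the choroid plexus sum (-0.86) and the oligodendrocyte sum (0.72). All r of Gfap given here rest mostly on the 3 Sham-Fabp4flox/flox mice, where the choroid plexus sum also ranged widest, from 870 to 3233 CPM. Aspg had an r of 0.94 with the sum of the erythroid markers. The genes most like Gfap were Acot13 (r = 0.94), Lef1 (0.94) and Napepld (0.93), and those most like the mean of the 10 were Ddx10 (0.98), Rgp1 (0.97) and Jun (0.97), out of 12180 genes with a mean of at least 5 CPM.

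Most measured genes of the pathway that Osmr belongs to rose after ICH. Of the genes for gp130 ligands, receptors and STAT3, 11 of 16 tested rose and none fell after ICH in flox/flox (median log2 fold change 1.19 against 0.02 over all genes), and 14 of 18 rose in CKO. The shares over all genes were 26.2% higher and 19.3% lower in flox/flox, and 24.5% higher in CKO. Osm, the ligand oncostatin M, went from 4, 0 and 0 reads in Sham-Fabp4flox/flox to 82, 46 and 31 in ICH-Fabp4flox/flox, and stood at 135, 49 and 126 in ICH-Fabp4CKO. Socs3, the feedback inhibitor of this pathway, rose by 5.27 (adjusted p = 0.00035) and 5.11. The smallest rises were those of Il6st, which encodes gp130 itself (0.52, adjusted p = 0.033), and Jak2 (0.66, adjusted p = 0.027), the kinase below it. None of the list passed between the genotypes.

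Further lists of astrocyte reactivity genes were counted in the same comparisons. With ICH, 26.2% of all genes were called higher and 19.3% lower in flox/flox, and 24.5% and 11.1% in CKO. All 5 further genes common to several kinds of reactive astrocyte rose in flox/flox, with a median of 6.55, and 4 rose in CKO. Timp1, an inhibitor of matrix proteases, rose by 8.05 and Cxcl10, a chemokine, by 6.81 in flox/flox, and S1pr3 by 3.87 and Hspb1 by 2.41. Hspb1, a small heat shock protein, did not pass in CKO (1.21, adjusted p = 0.0935). Of the genes described for the A1 type of reactive astrocyte, 9 of 11 tested rose and Amigo2 fell by 2.01 in flox/flox (median 2.84), led by Srgn (4.05) and Psmb8 (3.40), with Fbln5 (0.93) the smallest rise. In CKO 8 rose and 1 fell. Of the genes described for the A2 type, 10 of 11 rose in flox/flox (median 3.02) and 11 of 11 in CKO, led by Tgm1 (8.87) and Ptx3 (6.51) in flox/flox, where Tm4sf1 rose by 1.90 and Ptgs2 was at 1.14 (adjusted p = 0.181). Ptx3 held only 13, 3 and 1 reads in Sham-Fabp4flox/flox. Between the ICH groups all 5 common genes were below 0 in CKO, with a median of -1.19 against 0.06 over all genes. Of these, 2 had an unadjusted p under 0.05, against 12.2% of all genes. Timp1 alone had no overlap (11.5% of all genes), by the margin between 76.1 and 77.1 CPM. In the A1 and A2 lists 6 of 11 and 5 of 12 were below 0, with medians of -0.05 and 0.09. Several genes of these lists are also made by leukocytes, such as Srgn and Cd14.

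Lists of partners of single genes held both rises and falls. Of all genes tested, 26.2% were called higher and 19.3% lower in flox/flox, and 24.5% and 11.1% in CKO. The rises of 2 of 8 filament genes and 3 of 12 FGF genes were near these shares in both genotypes. Of 8 other intermediate filament genes, Des (2.40) and Lmna (1.40) rose and 3 neuronal filament genes fell in flox/flox, among them Nefl by 1.61 and Nefm by 1.36 (list median -0.50), and in CKO 2 rose and 2 fell. Of 12 hyaluronan genes and CD44 partners, 9 rose and 1 fell in flox/flox, and 8 rose in CKO (median 1.55). Spp1, which encodes the CD44 ligand osteopontin, rose by 5.92 in flox/flox and ranged from 434 to 15634 CPM over the ICH-Fabp4CKO mice. Hmmr, another hyaluronan receptor, rose by 5.11, Rdx by 0.55, and Has3, a hyaluronan synthase, fell by 1.19. Of 12 FGF receptors and feedback genes, 3 rose in flox/flox (median -0.07), Fgfr4 by 5.53 and Spry1 by 1.23 among them, and in CKO 3 rose and 2 fell, Spry4 and Etv5. Fgfr4 held only 4, 3 and 1 reads in Sham-Fabp4flox/flox, against 160, 95 and 67 in ICH-Fabp4flox/flox. Of 5 metalloreductase and ferroxidase partners, Slc40a1, which encodes the iron exporter ferroportin, rose by 2.58 and Steap3 by 2.44, while Steap2 fell by 1.16 and Steap1 by 2.87 in flox/flox (median -0.51). Steap1 was at 1.45, 3.18 and 7.02 CPM in Sham-Fabp4flox/flox, in the same order of mice as the choroid plexus sum. Of the Serpina3 cluster, 3 neighbors of Serpina3n were tested in flox/flox and all 3 rose, Serpina3g by 2.47, while Serpina3i went from 2, 1 and 2 reads to 62, 74 and 61 and Serpina3m from 0, 0 and 2 to 110, 22 and 11. No gene of these lists was called between the genotypes, in sham or after ICH.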

How the data were processed

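The authors deposited estimated counts (expected counts) per gene for 12 poly(A) brain tissue libraries, without normalization, with Ensembl identifiers and symbols. Between 7.36 and 8.69% of values per library had a decimal part. The submitters' processing notes name Bowtie2 2.2.8, HISAT2, StringTie 1.3.1 and DESeq2, with no role or order, and the genome build is not given in the sources used here, so no coordinates of the counted genes are given. Total counts ranged from 15650813 to 22406216.

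Counts were rounded to whole numbers. Each comparison of 3 mice against 3 was fitted over all genes in R 4.3.3 with edgeR 4.0.16 (filterByExpr set to 10 counts and a total of 15, TMM, quasi-likelihood F-test), and the difference between ICH effects was fitted in all 12 libraries. The threshold was a Benjamini-Hochberg adjusted p of 0.05. Standard errors and 95% intervals come from the same test. Log2 CPM used a prior count of 2. At these depths, 3 counts or fewer in each library of a group were treated as the floor, and no fold was given against it; the floor covers counting error only.

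The 10 genes, the other lists, the motifs and the alternatives were chosen with earlier results of these data known. All 10 genes are named. From each other list that is not a cell type list, the genes named are the 2 largest and 2 smallest changes in flox/flox among genes past the threshold in either ICH comparison. Genes named outside this rule (Cd14, the Y-linked genes, Hps3, Nudt6, Ly6g, choroid plexus markers and astrocyte markers given as examples) were chosen after their values were seen. Likeness was Pearson r over the 12 libraries after group means were taken off, with no p.

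The alternatives were DESeq2 1.42.0, all 12 libraries in one fit, library totals in place of TMM, the exact test of edgeR, relative log expression scaling, at least 10 counts in every library, every gene kept whatever its count, the replicate number as a block, and each mouse left out in turn. The fits were tested on simulated data. No 2 libraries of a group agreed within sampling noise. Promoter windows were read from a RefSeq table of build GRCm38.p6. Overlapping genes were taken from GENCODE vM21. Descriptions and plots used Python 3.11.15, numpy 2.4.6, pandas 2.3.3 and matplotlib 3.10.9.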

Additional observations from a re-analysis of the deposited data

How the results depend on the processing

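With 3 mice a group, the depth of 4 to 24 reads for Steap4 and 6 to 32 for Aspg in sham limits both genes, and leaving out 1 mouse leaves 2 against 3. All 10 genes were called for ICH in flox/flox under every alternative. In CKO all 10 were called except with at least 10 counts in every library, where Aspg and Steap4 could not be tested and 8 of 8 were called, and with 1 mouse left out (7 to 10). Between the ICH groups 1 gene (Gfap) was called by DESeq2, and 0 with any mouse left out. In sham 1 gene (Steap4) was called by edgeR's exact test, and 0 to 5 with 1 mouse left out. The differences between ICH effects gave 0 throughout. Between the ICH groups Nes was at -0.031 with relative log expression and with DESeq2, -0.049 with total counts, and -0.065 in one fit of 12 libraries, against 0.002 as reported. With 1 mouse left out, the values between the ICH groups ranged from -0.43 to 0.31 for Nes, -0.43 to 0.11 for Osmr, -0.75 to 0.70 for Steap4 and -0.70 to 0.11 for Cp. In sham, Fgf2 ranged from -0.039 to 0.18. The difference between ICH effects ranged from -0.29 to 0.50 for Gfap, -0.56 to 0.33 for Serpina3n, -0.022 to 0.51 for Osmr, -0.84 to 0.15 for Aspg and -0.24 to 0.57 for Cp. Over all genes, calls between the ICH groups went from 0 to 578 with DESeq2, 265 with the exact test and 362 in one fit of 12 libraries, and calls in sham from 16 to 150 with DESeq2, 151 with the exact test, 2 with at least 10 counts in every library and 0 to 2862 with 1 mouse left out. Calls for the difference went from 3 to 266 with DESeq2, to 1 with the block and to 0 to 371 with 1 mouse left out, and with 1 mouse left out calls for ICH went from 6707 to between 4181 and 8165 in flox/flox and from 5247 to between 751 and 10099 in CKO. In CKO 4154 genes were higher and 3541 lower with DESeq2, against 3605 and 1642 as reported. The lowest correlation of same-numbered mice was -0.0083 for ICH in CKO, -0.62 between the ICH groups and -0.23 in sham. For ICH in flox/flox the correlations were all positive, at 0.23, 0.030 and 0.15. Their mean was 0.13, against -0.066 for mice with different numbers. The main fits treated the mice as unpaired. With the replicate number as a block, Nes was at -0.038 between the ICH groups and Serpina3n at -0.13 for the difference, and the count of the 10 genes called was the same in each comparison. The causes of these changes were not tested.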
